A study of Rattus norvegicus with 2 samples.

Results

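The genes described here encode receptors for GABA, glycine, acetylcholine, monoamines, histamine, purines and opioid peptides, and they were taken from the deposited table by gene symbol alone. The symbol pattern, a set of name stems such as Gabra, Chrn, Htr, Adora and P2rx, matched 88 of the 17202 rows. RNA had been sequenced from 2 cultures of wild-type rat oligodendrocyte precursor cells (OPCs), the dividing glia that give rise to myelin-forming oligodendrocytes, with brain given as the tissue. The Aβ culture received 1 µM amyloid-beta (Aβ), the peptide of Alzheimer plaques, for 2 days, and the control culture received DMSO, the solvent. Each condition was 1 library, so no test between conditions was possible and differences could not be checked against replicates. The treatment protocol is worded alike for both samples, the extraction protocol speaks of adult OPCs while the design speaks of developing rats, and the P1 in both titles is not explained.

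Transmitter receptors are either ion channels built from several subunits, which open when the transmitter binds, or receptors that span the membrane and act through G proteins. OPCs are known to receive synapses from neurons and to carry receptors for GABA, ATP, adenosine and acetylcholine, and signalling through some of these is known to change OPC division, migration or differentiation in rodents. GABA-A, glycine, nicotinic, P2X and 5-HT3 receptors are channels, and the rest of the families below act through G proteins.

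Transcript levels are given in TPM (reads per kilobase of transcript, scaled so that each library sums to 1000000, as the authors deposited them), which can be compared between genes. Differences between the libraries are given as the ratio of CPM (counts scaled to library size), Aβ over DMSO, with an exact 95% Clopper-Pearson interval that covers counting error only. The depth was 15117102 estimated counts for Aβ and 15019416 for DMSO, of which the receptor genes held 0.103% in either library. Of the 88 receptor genes, 42 reached 1 TPM in at least 1 library, 38 reached it in both, and 10 reached 10 TPM in both. Of all 17202 rows, 76.8% reached 1 TPM in at least 1 library, against 47.7% of the receptor genes.

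OPC markers were abundant in both libraries, with a summed level of 2183 TPM with Aβ and 2106 TPM with DMSO over 7 listed markers, headed by Olig1 and Ptprz1. Markers of other cells that carry these receptors were present too. Astrocyte markers summed to 2148 TPM with Aβ and 2035 TPM with DMSO (8 of 8 listed, 7 at 1 TPM or more), and Gfap alone had 838 TPM with Aβ and 793 TPM with DMSO. Neuron markers summed to 762 TPM with Aβ and 735 TPM with DMSO (12 of 12 at 1 TPM or more), and Stmn2 had 212 TPM with Aβ and 208 TPM with DMSO. Microglia and macrophage markers summed to 17.4 TPM with Aβ and 22.4 TPM with DMSO (6 of 12 at 1 TPM or more). Oligodendrocyte markers summed to 601 TPM with Aβ and 563 TPM with DMSO. Endothelial markers summed to 1.53 TPM with Aβ and 1.37 TPM with DMSO, and Schwann cell markers to 21.9 TPM with Aβ and 27.0 TPM with DMSO. Fibroblast and pericyte markers, which include the OPC gene Cspg4, summed to 19.8 TPM with Aβ and 18.2 TPM with DMSO, and ependymal markers to 16.4 TPM with Aβ and 18.2 TPM with DMSO. Lum, Rgs5 and Ttr were at 0 with Aβ, and Emcn was at 0 with DMSO. The part of neurons and astrocytes in the receptor levels below was not tested, and in bulk RNA fewer cells of a type and less RNA per cell cannot be told apart.

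The receptor genes with the highest levels were Gabbr1 and Adora1, followed by the glycine receptor gene Glrb and the GABA-A subunit gene Gabrg1. Gabbr1, the GABA-binding subunit of the GABA-B receptor, had 113 TPM with Aβ and 107 TPM with DMSO. Adora1, the adenosine receptor that lowers cyclic AMP, had 73.0 TPM with Aβ and 68.5 TPM with DMSO. P2rx4, Gabra2, P2rx7 and Hrh1 were among the others at 10 TPM or more in both libraries. Monoamine and histamine receptor genes were mostly low: apart from Hrh1 and Htr3a, none of the serotonin, adrenergic, dopamine and histamine receptor genes exceeded 2.66 TPM.

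**Figure D1:**
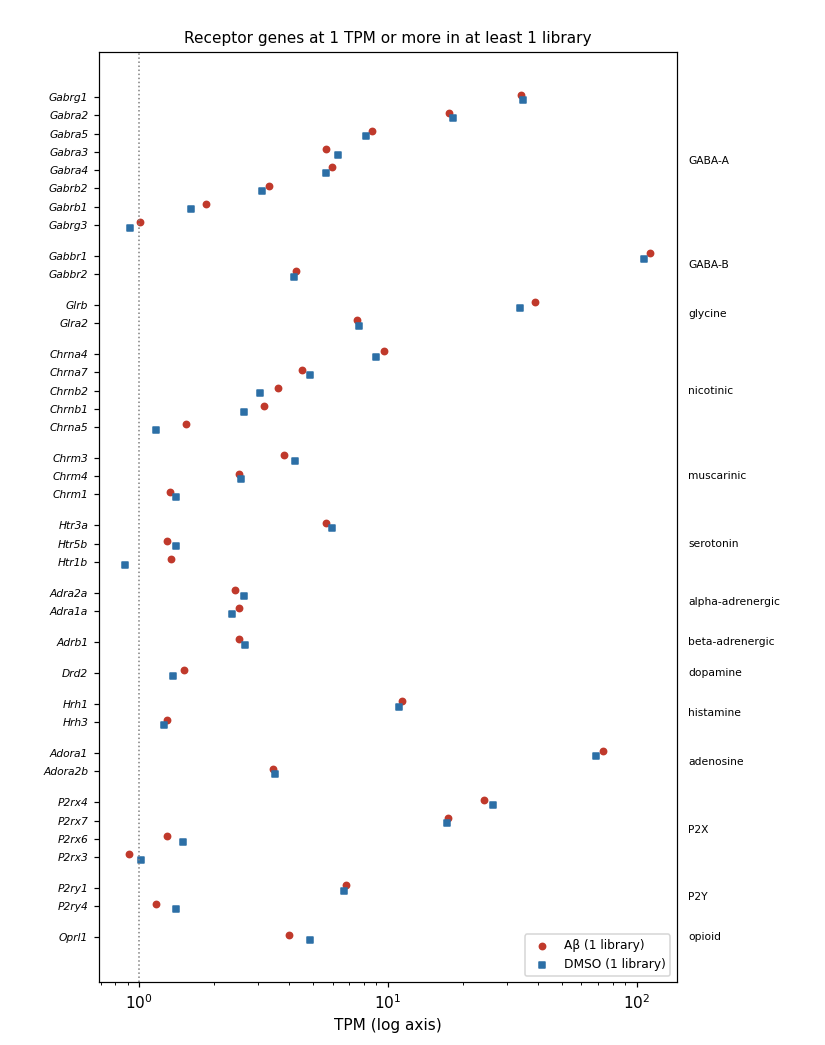
Level of 38 of the 42 receptor genes that reached 1 TPM (dotted line) in at least 1 library, in TPM on a log axis, with families down the page, circles for the Aβ library and squares for the DMSO library. Gabbr1 (113 TPM with Aβ and 107 TPM with DMSO) and Adora1 (73.0 TPM with Aβ and 68.5 TPM with DMSO) lie furthest to the right, and the pair of points of each gene lie close together.

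Receptor genes above and under 1 TPM differed less in the CG content of their promoters than rows in general did. This feature is shown because many widely expressed genes start in CG-rich DNA. Promoters were the 250 bases before the first listed start of each gene in RefSeq's table for build GRCr8. Of the 88 genes, 66 had one. Other listed starts, and which start these cells use, were not examined. The dinucleotide CG, which reads the same on both strands, was counted in each promoter. The median was 15.5 CG in the 34 genes at 1 TPM or more and 12 CG in the 32 genes under 1 TPM. Over all rows of the table with a promoter, the median was 17 CG in the 10401 rows at 1 TPM or more and 5 CG in the 2710 rows under 1 TPM. At least 10 CG were found in 67.6% of the receptor genes at 1 TPM or more, in 53.1% of those under it, in 77.1% of all rows at 1 TPM or more, in 28.2% of all rows under it, and in 38.4% of all 27456 promoters of that length, of which 92.5% held at least 1. Thus the receptor genes under 1 TPM had a higher median than all rows at that level, a description with no test.

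A few promoters show the range, printed 5′ to 3′ on the strand of the gene, with each CG in capitals. Gabbr1 and Gabbr2 encode the partners of the GABA-B receptor and both have many CG (26 and 39), although Gabbr2 had only 4.29 TPM with Aβ and 4.19 TPM with DMSO. Adora1, the next most abundant gene, has 3 CG. Oprd1, the delta opioid receptor gene, has 34 CG and had 0 counts with Aβ and 1 count with DMSO. They lie on the minus strand of GRCr8 at chr20:1499237-1499486 (Gabbr1), chr5:66083696-66083945 (Gabbr2), chr13:48246832-48247081 (Adora1) and chr5:149625000-149625249 (Oprd1).
Gabbr1: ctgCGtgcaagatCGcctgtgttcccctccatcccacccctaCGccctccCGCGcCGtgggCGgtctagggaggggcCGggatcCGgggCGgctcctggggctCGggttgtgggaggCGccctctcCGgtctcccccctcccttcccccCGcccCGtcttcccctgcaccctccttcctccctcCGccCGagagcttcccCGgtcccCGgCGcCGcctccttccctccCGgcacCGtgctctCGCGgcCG
Gabbr2: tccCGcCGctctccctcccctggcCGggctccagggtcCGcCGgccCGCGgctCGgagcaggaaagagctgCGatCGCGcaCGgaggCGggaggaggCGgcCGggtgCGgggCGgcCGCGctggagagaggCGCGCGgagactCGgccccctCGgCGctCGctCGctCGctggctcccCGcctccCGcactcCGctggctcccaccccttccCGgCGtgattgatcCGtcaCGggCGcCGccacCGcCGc
Adora1: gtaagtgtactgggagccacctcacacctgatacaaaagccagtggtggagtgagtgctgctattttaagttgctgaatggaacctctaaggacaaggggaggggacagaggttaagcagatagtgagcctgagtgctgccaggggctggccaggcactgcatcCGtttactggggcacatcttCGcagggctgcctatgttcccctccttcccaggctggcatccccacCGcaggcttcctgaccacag
Oprd1: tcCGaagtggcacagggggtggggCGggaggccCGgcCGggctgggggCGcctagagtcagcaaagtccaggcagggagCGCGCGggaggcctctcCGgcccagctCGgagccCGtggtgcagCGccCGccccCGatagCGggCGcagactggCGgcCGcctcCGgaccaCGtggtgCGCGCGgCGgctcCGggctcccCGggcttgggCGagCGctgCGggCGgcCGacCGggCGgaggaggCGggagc

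**Figure D2:**
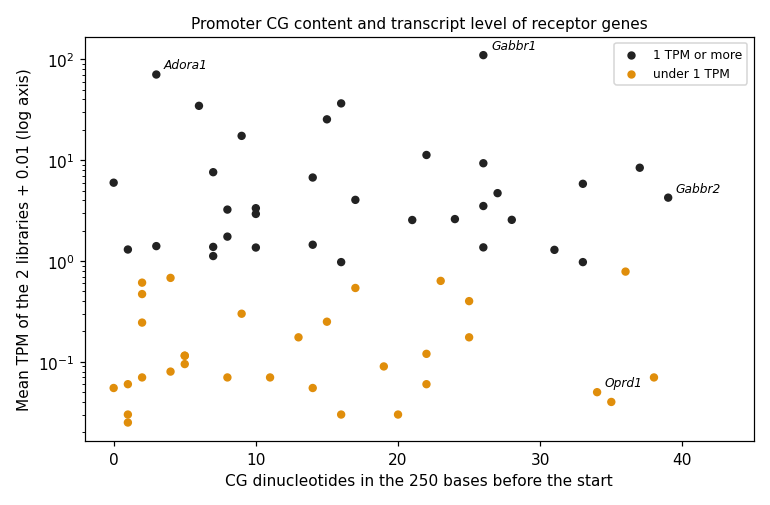
Number of CG dinucleotides in the 250 bases before the RefSeq start (horizontal axis) against the mean TPM of both libraries plus 0.01 (log axis) for the 66 receptor genes with a promoter, coloured by whether they reached 1 TPM in at least 1 library. Adora1 combines a high level with 3 CG before its first listed start, and Oprd1 a level near 0 with 34 CG.

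The comparison of Aβ with DMSO asks whether the peptide alters receptor genes in OPCs, and no receptor gene was called at 2-fold. A gene was called higher or lower where its log2 ratio of (CPM + 0.5) (which pulls the ratios of low genes towards 1) was at least 1 in size and its interval left out a ratio of 1. Of the 42 receptor genes at 1 TPM or more, 0 were called, against 0.629% of the 13205 rows at that level (0.257% called higher and 0.371% lower). At 1.5-fold the count was also 0, against 1.59%. The interval alone left out 1 for 2 of the 42 genes (1 higher and 1 lower), against 13.5% of the 13205 rows. Receptor genes had fewer counts than rows in general, with medians of 124 with Aβ and 148.5 with DMSO against 505 with Aβ and 499 with DMSO over those rows, so their intervals are wider. They lay wholly within 1.5-fold for 23 of the 42 genes and for 81.8% of all rows, and for the other 19 receptor genes the interval reached past 1.5-fold on at least 1 side.

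The ratio was above 1 for 16 of the 42 genes and below 1 for 26, beside 6565 above and 6640 below of the 13205 rows. The median log2 ratio of the 42 genes was -0.021, beside -0.00072 over the 13205 rows. All 42 lay within 1.5-fold by their ratio, against 96.4% of all rows at 1 TPM or more. Within 1.2-fold lay 34 of the 42 (81.0%), a smaller share than the 87.5% of all rows. In the 41 receptor genes with whole counts, squared differences averaged 0.964 times the counting variance, beside 1.82 times in the 11448 such rows at 1 TPM or more. These averages were not matched for counts, of which receptor genes had fewer than rows in general. Summed by family, the ratio was above 1 in 4 of 14 families and below 1 in 10, and the interval held 1 in all 14.

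**Figure D3:**
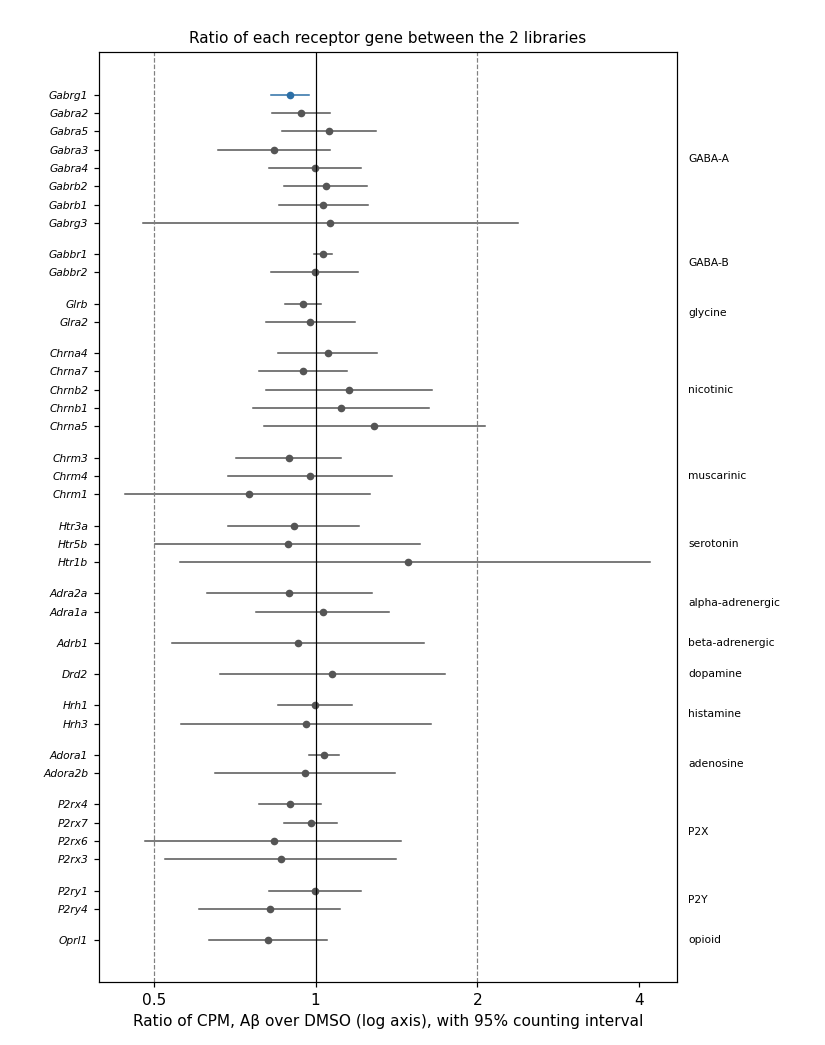
Ratio of CPM, Aβ over DMSO, on a log axis for 38 of the 42 receptor genes that reached 1 TPM, with exact 95% intervals for counting error as bars and dashed lines at 2-fold. The bar leaves out 1 for Gabrg1 (blue, lower) and holds 1 for the other genes shown.

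GABA-A receptors, chloride channels of 5 subunits, were represented by 18 genes with 117 TPM in sum with Aβ and 114 TPM with DMSO (ratio of summed counts 0.975, 0.931 to 1.02). The 11 genes at 1 TPM or more were all of the alpha, beta and gamma classes, from which most GABA-A receptors of the brain are built. Alpha subunits shape the GABA site. Gabra2 was the highest of them, with 17.7 TPM (491 counts) with Aβ and 18.3 TPM (518 counts) with DMSO. Gabra5, known from receptors outside synapses, had 8.67 TPM with Aβ and 8.14 TPM with DMSO. Gabra4 had 5.98 TPM with Aβ and 5.66 TPM with DMSO, and Gabra3 had 5.65 TPM with Aβ and 6.29 TPM with DMSO. Counts with Aβ were 206 for Gabra5, 208 for Gabra4 and 131 for Gabra3, against 193, 207 and 155 for the same genes with DMSO. None of their intervals left out 1, and the ratio of Gabra3 was 0.838 (0.659 to 1.06), beside 0.940 (0.829 to 1.07) for Gabra2, 1.06 (0.866 to 1.30) for Gabra5 and 0.997 (0.818 to 1.21) for Gabra4.

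Beta subunits, which the channel needs to reach the cell surface, were represented by 3 genes. Gabrb2 had 258 counts (3.34 TPM) with Aβ and 245 counts (3.11 TPM) with DMSO, at a ratio of 1.04 (0.874 to 1.25). Gabrb1 had 226 counts (1.86 TPM) with Aβ and 217 counts (1.61 TPM) with DMSO, at a ratio of 1.03 (0.854 to 1.25).

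Gamma subunits place the receptor at synapses and set its response to benzodiazepines. Gabrg1 had 1137 counts (34.3 TPM) with Aβ and 1256 counts (34.9 TPM) with DMSO, a ratio of 0.898 (0.828 to 0.974), and was the gene whose interval lay below 1 (6.92% of all rows lay below and 6.57% above). With a 99% interval it stayed below 1 (0.807 to 0.999), while its ratio in TPM was 0.983. Gabrg3 was at the threshold, with 15 counts (1.01 TPM) with Aβ and 14 counts (0.92 TPM) with DMSO.

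The subunit genes of the other GABA-A classes stayed under 1 TPM. Gabrq (theta) had 29 counts with Aβ against 24 with DMSO, and Gabrr2, a rho subunit known from retina, had 6 with Aβ against 13 with DMSO. Gabrd, of receptors outside synapses, had 0 counts with Aβ and 1 with DMSO, as had Gabrp. Gabre had 1 count with Aβ and 0 with DMSO, Gabrr1 had 2 with Aβ and 5 with DMSO, and Gabrr3 had 2 with Aβ and 0 with DMSO. Only Gabrr2 and Gabrq of these genes exceeded 5 counts in a library.

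GABA-A genes lie in clusters, and neighbours differed widely in level. In RefSeq's gene table for GRCr8, which holds 87 of the 88 genes by identifier, 28 receptor genes fell into 11 groups of neighbours with at most 1 other protein-coding gene between them. The group of Gabrb1, Gabra4, Gabra2 and Gabrg1 held the lowest beta gene (1.86 TPM with Aβ and 1.61 TPM with DMSO) and the highest gamma gene (34.3 TPM with Aβ and 34.9 TPM with DMSO). The neighbours Gabrg3 and Gabra5 stood at 1.01 TPM and 8.67 TPM with Aβ, against 0.92 TPM and 8.14 TPM with DMSO. Outside the GABA-A family, the channel genes P2rx4 and P2rx7 were neighbours and both exceeded 17 TPM, while Chrna5 (1.54 TPM with Aβ and 1.17 TPM with DMSO) lies beside Chrna3 (0 counts with Aβ and 2 with DMSO).

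**Figure D4:**
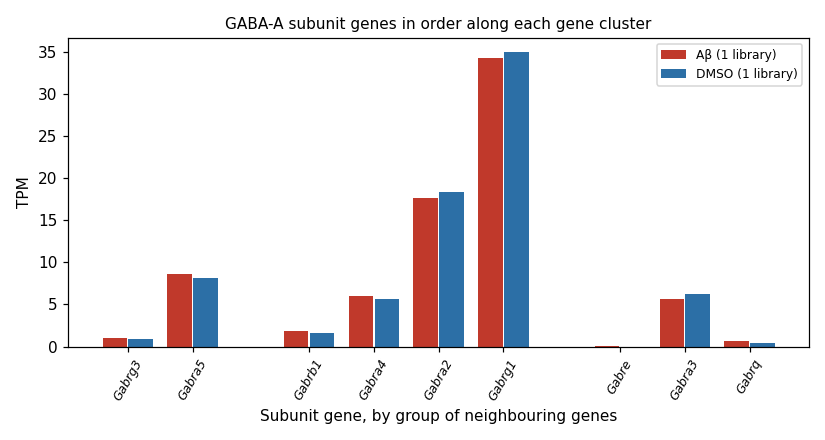
TPM of 9 GABA-A subunit genes with Aβ (left bar) and DMSO (right bar), in their order along 3 of the groups of neighbouring genes that hold an alpha gene. Within a group the levels differ several-fold, as between Gabrb1 (1.86 TPM with Aβ and 1.61 TPM with DMSO) and Gabrg1 (34.3 TPM with Aβ and 34.9 TPM with DMSO).

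The GABA-B receptor needs Gabbr1 for binding GABA and Gabbr2 for coupling to G proteins and for transport to the surface. Gabbr1 had 4975 counts with Aβ and 4778 counts with DMSO, a ratio of 1.03 (0.992 to 1.07). Gabbr2 had 235 counts with Aβ and 234 counts with DMSO, a ratio of 0.996 (0.828 to 1.20). The Gabbr1 level exceeded that of Gabbr2 by 26.4 times in TPM with Aβ and by 25.5 times with DMSO.

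Glycine receptors were represented by Glrb and Glra2. Glrb, the beta subunit that anchors the receptor to gephyrin, had 1263 counts with Aβ and 1321 counts with DMSO, a ratio of 0.948 (0.877 to 1.03). In TPM the direction was the other way, with 39.1 TPM with Aβ and 34.1 TPM with DMSO (ratio 1.15). Among the 24 receptor genes with at least 100 counts in each library, Glrb was the single one whose TPM ratio departed from its count ratio by more than 10% beyond the general shift of 1.03 times, as did 0.754% of the 10881 rows at that depth. TPM depends on the transcript length assigned to a gene in each library, and whether the mix of Glrb transcripts differed was not tested. Glra2, the alpha subunit of immature rodent neurons, had 218 counts (7.51 TPM) with Aβ and 221 counts (7.67 TPM) with DMSO, at a ratio of 0.978 (0.808 to 1.19). Glra1, the adult spinal form, had 0 counts with Aβ against 2 with DMSO, and Glra4 had 1 with Aβ against 3 with DMSO.

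Of 10 nicotinic subunit genes, whose products form cation channels opened by acetylcholine, 5 reached 1 TPM. Chrna4, which pairs with Chrnb2 in the main heteromeric receptor of the brain, had 186 counts (9.68 TPM) with Aβ and 175 counts (8.95 TPM) with DMSO, at a ratio of 1.05 (0.853 to 1.30). Chrnb2 had 72 counts (3.61 TPM) with Aβ and 62 counts (3.05 TPM) with DMSO, at a ratio of 1.15 (0.809 to 1.64). Chrna7, which forms channels on its own and has been described to bind Aβ, had 220 counts (4.52 TPM) with Aβ and 230 counts (4.88 TPM) with DMSO, at a ratio of 0.949 (0.785 to 1.15). The interval of Chrna7 thus left out differences of 1.5-fold. Chrnb1, known from the muscle receptor, had 63 counts (3.19 TPM) with Aβ and 56 counts (2.65 TPM) with DMSO, at 1.12 (0.766 to 1.63). Chrna5, an accessory subunit, had 44 counts (1.54 TPM) with Aβ and 34 counts (1.17 TPM) with DMSO, at 1.28 (0.802 to 2.07). Chrna1, Chrna2, Chrna3, Chrna10 and Chrne, under 1 TPM, had between 0 and 10 counts.

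Muscarinic receptors, whose blockade is known to promote OPC differentiation in rodents, were low. Chrm3, which acts through Gq, was the highest, with 150 counts (3.83 TPM) with Aβ and 167 counts (4.23 TPM) with DMSO, at a ratio of 0.891 (0.710 to 1.12). Chrm4, which acts through Gi, had 67 counts (2.52 TPM) with Aβ and 68 counts (2.58 TPM) with DMSO, at 0.977 (0.687 to 1.39). Chrm1, also a Gq receptor, had 28 counts (1.33 TPM) with Aβ and 37 counts (1.41 TPM) with DMSO, at 0.751 (0.442 to 1.26). All 3 ratios were below 1, and each interval held 1. Summed over the 5 muscarinic genes there were 250 counts with Aβ and 280 counts with DMSO, a ratio of 0.886 (0.744 to 1.05). Chrm2 had 3 counts with Aβ against 8 with DMSO, and Chrm5 had 2 with Aβ against 0 with DMSO.

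Most serotonin receptor RNA was that of Htr3a, the channel-forming subunit of the 5-HT3 receptor. It had 101 counts (5.63 TPM) with Aβ and 110 counts (5.97 TPM) with DMSO, at a ratio of 0.911 (0.688 to 1.20), and made up 61.9% of the summed TPM of the 12 serotonin receptor genes with Aβ and 65.5% with DMSO. Its partner gene Htr3b had 1 count with Aβ and 0 with DMSO. Htr5b, which encodes a receptor in rodents, had 26 counts (1.29 TPM) with Aβ and 29 counts (1.41 TPM) with DMSO, at 0.889 (0.503 to 1.56). Htr1b, a Gi receptor, passed 1 TPM with Aβ alone, with 12 counts (1.34 TPM) against 8 counts (0.88 TPM) with DMSO. Its ratio of 1.49 (0.559 to 4.20) was the furthest from 1 of the 42 genes and had the widest interval. Htr1f, Htr2a, Htr2b, Htr2c, Htr4, Htr5a, Htr6 and Htr7 had between 0 and 12 counts.

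Adrenergic receptors of each class were present at low level. Adra1a, which acts through Gq, had 104 counts (2.52 TPM) with Aβ and 100 counts (2.36 TPM) with DMSO, at a ratio of 1.03 (0.776 to 1.37). Adra2a, a Gi receptor, had 64 counts (2.43 TPM) with Aβ and 71 counts (2.65 TPM) with DMSO, at 0.894 (0.628 to 1.27). The beta receptors raise cyclic AMP. Adrb1 had 29 counts (2.53 TPM) with Aβ and 31 counts (2.66 TPM) with DMSO, at 0.928 (0.540 to 1.59). None of these intervals left out 1. Under 1 TPM, Adra1b had 15 counts with Aβ against 14 with DMSO, and Adra1d, Adra2b and Adra2c had between 0 and 13.

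Of the dopamine receptors, Drd2, which lowers cyclic AMP, reached 1 TPM. It had 39 counts (1.51 TPM) with Aβ and 36 counts (1.37 TPM) with DMSO, at a ratio of 1.07 (0.665 to 1.74). Drd1, which raises cyclic AMP, stayed under 1 TPM, with 16 counts (0.45 TPM) with Aβ and 30 counts (0.89 TPM) with DMSO, and its ratio of 0.529 had an interval up to 1 (0.269 to 1.00). Among the receptor genes under 1 TPM, Drd1 and Gabrq had the most counts. Drd3 had 11 counts in each library, and Drd5 had 3 with Aβ and 1 with DMSO.

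Histamine signalling was represented mainly by Hrh1, a Gq receptor. It had 326 counts (11.4 TPM) with Aβ and 324 counts (11.1 TPM) with DMSO, at a ratio of 0.998 (0.853 to 1.17), which leaves out differences of 1.2-fold. Hrh3, a Gi receptor whose blockade is known to promote OPC differentiation in rodent cells, had 30 counts (1.30 TPM) with Aβ and 31 counts (1.26 TPM) with DMSO, at 0.960 (0.561 to 1.64). Hrh2 had 0 counts with Aβ and 2 with DMSO.

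Adenosine receptors were headed by Adora1, with 1914 counts with Aβ and 1831 counts with DMSO, a ratio of 1.04 (0.972 to 1.11). Adora1 made up 94.9% of the family's summed TPM with Aβ and 94.3% with DMSO. Adora2b, a receptor of low affinity that raises cyclic AMP, had 56 counts (3.47 TPM) with Aβ and 58 counts (3.53 TPM) with DMSO, at 0.958 (0.651 to 1.41). Adora2a, which also raises cyclic AMP, stayed under 1 TPM with 11 counts with Aβ and 12 with DMSO. Adora3 had 0 counts with Aβ and an estimated 1.5 counts with DMSO.

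ATP-gated P2X channels were mainly P2rx4 and P2rx7, which together made up most of the family's TPM. P2rx4, which opens at low ATP, had 427 counts (24.3 TPM) with Aβ and 473 counts (26.5 TPM) with DMSO, at a ratio of 0.895 (0.784 to 1.02). P2rx7, which needs high ATP and is known for harming oligodendrocytes when overactivated, had 601 counts (17.5 TPM) with Aβ and 609 counts (17.4 TPM) with DMSO, at 0.979 (0.873 to 1.10). P2rx7 was the single gene of the 42 with fractional estimated counts. P2rx6 had 27 counts (1.29 TPM) with Aβ and 32 counts (1.5 TPM) with DMSO, and P2rx3, known from sensory neurons, had 33 counts (0.91 TPM) with Aβ and 38 counts (1.02 TPM) with DMSO. Their ratios were 0.837 (0.482 to 1.44) and 0.861 (0.524 to 1.41). All 4 P2X genes at 1 TPM or more had ratios of CPM below 1. The ratio of P2rx7 in TPM was 1.01, beside the general shift of 1.03 times between TPM ratios and count ratios. The family sum of 1115 counts with Aβ and 1173 counts with DMSO had a ratio of 0.943 (0.868 to 1.02). P2rx2 had 14 counts with Aβ against 10 with DMSO, and P2rx5 had 13 with Aβ against 11 with DMSO.

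Of the P2Y receptors, which bind nucleotides and act through G proteins, P2ry1 and P2ry4 reached 1 TPM. P2ry1, the ADP receptor described in OPC migration in rats, had 206 counts (6.80 TPM) with Aβ and 205 counts (6.64 TPM) with DMSO, at a ratio of 0.997 (0.817 to 1.22). P2ry4 had 83 counts (1.17 TPM) with Aβ and 100 counts (1.41 TPM) with DMSO, at 0.823 (0.608 to 1.11). P2ry12 and P2ry13, known as microglial receptors in brain, had 8 and 3 counts with Aβ and 5 and 2 with DMSO, beside microglial marker sums of 17.4 TPM with Aβ and 22.4 TPM with DMSO. P2ry2, P2ry6, P2ry10 and P2ry14 had between 0 and 9 counts.

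Among opioid receptors, Oprl1, the receptor of the peptide nociceptin, reached 1 TPM. It had 117 counts (3.99 TPM) with Aβ and 142 counts (4.88 TPM) with DMSO, at a ratio of 0.817 (0.634 to 1.05). The classical delta, kappa and mu receptor genes Oprd1, Oprk1 and Oprm1 had between 0 and 8 counts.

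Receptor genes near the threshold of 1 TPM rested on few counts. P2rx2 (0.94 TPM with Aβ and 0.67 TPM with DMSO), Drd1 and Adra2c (0.68 TPM with Aβ and 0.87 TPM with DMSO) lay just under it, and Gabrg3 and P2rx3 just above. Of the 46 genes under 1 TPM, 27 had at most 3 counts in each library. Among them 10 were at 0 with Aβ (Adora3, Adra1d, Chrna3, Gabrd, Gabrp, Glra1, Hrh2, Htr1f, Oprd1 and P2ry10) and 6 were at 0 with DMSO (Chrm5, Chrna10, Gabre, Gabrr3, Htr3b and Htr4). A count of 0 allows up to 3 counts, or 0.198 CPM with Aβ and 0.200 CPM with DMSO, so these genes were not detected at this depth in that library.

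**Figure D5:**
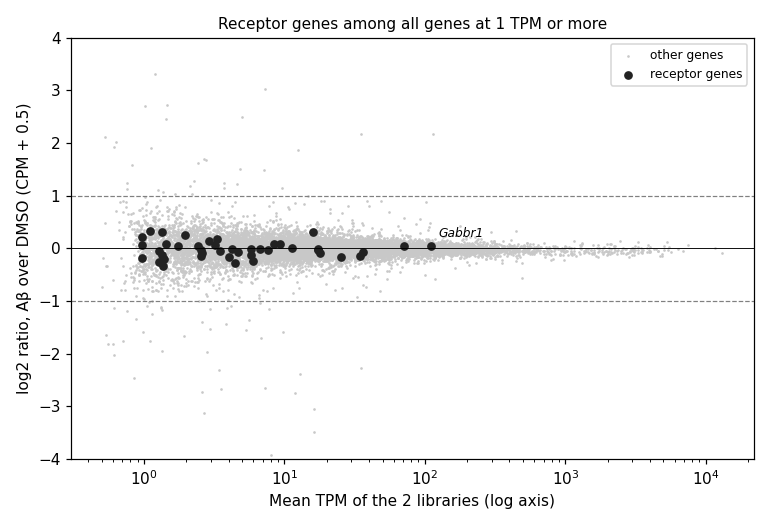
Log2 ratio of (CPM + 0.5), Aβ over DMSO, against the mean TPM of both libraries (log axis) for the 13205 genes at 1 TPM or more in at least 1 library, with receptor genes in black, dashed lines at 2-fold and 8 other genes beyond the axis limits of 4 in size. All 42 receptor genes lie between the dashed lines.

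The genes around the receptors were examined by lists for each transmitter, and 2 genes of these lists, both for purines, were called at 2-fold, as were 0.629% of all rows at 1 TPM or more. Of 22 genes of purine release and breakdown, 21 were in the table and 17 reached 1 TPM, of which 3 had ratios above 1 and 14 below (median log2 ratio -0.11, beside -0.00072 over all rows). Entpd1, the ectoenzyme CD39 that degrades ATP and ADP, had 109 counts (2.70 TPM) with Aβ and 10 counts (0.24 TPM) with DMSO, a ratio of 10.8 (5.66 to 23.2). Slc29a2, an equilibrative nucleoside transporter, had 42 counts (1.25 TPM) with Aβ and 102 counts (4.65 TPM) with DMSO, a ratio of 0.408 (0.278 to 0.590). In TPM the ratio of Slc29a2 was further from 1, at 0.269, and that of Entpd1 was 11.25. Why the 2 measures differed for Slc29a2 was not tested. Both had fractional estimated counts, as had 13.3% of all rows at 1 TPM or more. A gene's count can be fractional where reads are shared with other genes. The part of such reads in these 2 differences was not tested. The most abundant genes of the list were Pnp, which splits purine nucleosides (263 TPM with Aβ and 277 TPM with DMSO, ratio of CPM 0.930, 0.884 to 0.978), the connexin gene Gja1 (82.8 TPM with Aβ and 82.2 TPM with DMSO) and Adk, which phosphorylates adenosine (72.9 TPM with Aβ and 77.0 TPM with DMSO).

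Of 27 genes of GABA and glycine handling, 22 reached 1 TPM and 0 were called, with 13 ratios above 1 and 9 below (median log2 ratio 0.038). The interval lay above 1 for 4 and below 1 for 2 of the 22, beside 6.57% above and 6.92% below over all rows at 1 TPM or more, and those given here were named after their values were seen. Above were Slc12a5, a chloride exporter typical of neurons, at 1.37 (1.12 to 1.68) from 234 counts with Aβ and 169 with DMSO, Aldh5a1, which completes GABA breakdown, at 1.13 (1.05 to 1.22), the GABA transporter Slc6a11 at 1.12 (1.05 to 1.21) and Nlgn2, an adhesion protein of inhibitory synapses, at 1.07 (1.01 to 1.14). Among those below was Kctd12, an auxiliary subunit of GABA-B receptors, at 0.854 (0.784 to 0.932). Among the most abundant were Gabarap (482 TPM with Aβ and 467 TPM with DMSO) and Gabarapl2 (162 TPM with Aβ and 159 TPM with DMSO). Gad1, which makes GABA and was also named after its value was seen, had 24.5 TPM with Aβ and 25.2 TPM with DMSO.

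The remaining lists held no called gene. For acetylcholine, 10 of 18 listed genes in the table reached 1 TPM, with 6 ratios above 1 and 4 below (median log2 ratio 0.029), and the most abundant were the matrix protein gene Agrn (95.3 TPM with Aβ and 91.1 TPM with DMSO), Ly6e (66.0 TPM with Aβ and 62.2 TPM with DMSO) and Ly6h (37.1 TPM with Aβ and 34.2 TPM with DMSO). For monoamines and histamine, 8 of 16 reached 1 TPM, with 3 above and 5 below (median -0.015), and among the most abundant were Qdpr (84.2 TPM with Aβ and 84.0 TPM with DMSO) and the degrading enzyme Maoa (58.1 TPM with Aβ and 57.5 TPM with DMSO). For opioid peptides, 6 of 7 reached 1 TPM, with 2 above and 4 below (median -0.093), headed by the protease gene Ece1 (76.6 TPM with Aβ and 76.8 TPM with DMSO). The peptide genes Penk, Pdyn and Pnoc had 27.2 TPM, 13.1 TPM and 11.9 TPM with Aβ. With DMSO they had 30.0 TPM, 11.2 TPM and 12.5 TPM, so Pdyn was above Pnoc with Aβ alone. The intervals of both these genes held 1, at ratios of 1.14 (0.960 to 1.35) for Pdyn and 0.903 (0.682 to 1.19) for Pnoc. Of G proteins, arrestins and receptor kinases, 25 of 25 in the table reached 1 TPM, with 8 above and 17 below (median -0.034). Their intervals lay above 1 for 1 and below 1 for 6 of the 25, beside 6.57% above and 6.92% below over all rows at 1 TPM or more. Intervals narrow as counts rise, and these shares were not matched for counts, so the part of depth in them was not tested. The median level of the list was 39.6 TPM with Aβ and 41.3 TPM with DMSO. The most abundant were Gnb2 (539 TPM with Aβ and 544 TPM with DMSO), Gnb1 (438 TPM with Aβ and 428 TPM with DMSO) and Gnai2 (403 TPM with Aβ and 396 TPM with DMSO).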

How the data were processed

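Per the submitters' processing notes, reads were handled with Bowtie2 and the rat build Rnor_6.0, and the libraries were mRNA libraries from total RNA, per the labels' protocols. The quantifier, annotation release and strand setting were not given in the sources used here. Whether reads of overlapping antisense genes were kept apart is therefore not known. The authors' deposited file gives estimated counts (expected counts, some not whole), TPM and FPKM per gene, and a signal column of normalized counts, deposited by the authors, that equals the count rounded up over 1 constant per library and was not used. Estimated counts were rounded to whole numbers. CPM used effective library sizes from TMM (edgeR 4.0.16, R 4.3.3), and intervals were exact Clopper-Pearson bounds conditional on the sum of both counts (scipy 1.17.1). The calculation was tested on simulated data.

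Receptor genes were taken by symbol pattern from all rows, and ratios and shares of called genes were computed over the whole table. Receptor genes at 1 TPM or more are named with their values, except a few genes that are not reported here, the rest by family with the range of counts, and from each list the called genes and the 3 highest in TPM. The receptor genes and the 6 gene lists and 9 marker lists were chosen with earlier results of these data known. Alternatives were total counts, DESeq2 1.42.0 size factors, TPM, pseudocounts of 0.1 and 2 CPM, other filters on level, a 1.5-fold rule and 99% intervals. Promoter sequences and gene order are from RefSeq (GRCr8), with the first listed start of each gene.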

Additional observations from a re-analysis of the deposited data

How the results depend on the processing

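Each condition has 1 library, so nothing separates the treatment from other differences between the cultures, and intervals cover counting error only. No paired analysis was possible because each group has 1 library. The count of receptor genes called at 2-fold was 0 under every alternative run, and the number at 1 TPM or more was 38 when both libraries had to reach it, 37 with FPKM and 42 with a level of 1 CPM. With 99% intervals, 1 receptor gene (Gabrg1) in place of 2 had an interval that left out a ratio of 1. The median log2 ratio of the receptor genes lay between -0.030 and -0.0093 under the count-based alternatives and was 0.031 with TPM, beside 0.037 for all rows with TPM. With TPM, 7 of 42 receptor genes changed the sign of their ratio (Glrb, Gabbr2, Gabra4, Hrh1, Hrh3, P2rx7 and P2ry1), and Glrb (log2 ratio 0.20) and Gabrg1 left their counting interval. With DESeq2 size factors, 4 genes near a ratio of 1 changed sign, by at most 0.0065 on the log2 scale. Depth limits the genes with few counts: 19 of the 42 have intervals that reach beyond 1.5-fold.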
